A study of Mus musculus with 4 samples.

Results

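Arginine uptake and use is covered here by 7 genes, chosen by symbol from 14798 gene symbols with a peak: the transporter genes Slc7a1 and Slc7a2, the arginase genes Arg1 and Arg2, the nitric oxide synthase gene Nos2, the argininosuccinate synthase gene Ass1 and the ornithine decarboxylase gene Odc1. They held 19 of the 38697 m6A peaks listed for Mettl3 cKO macrophages, 18 of the 36507 listed for WT macrophages and 9 of the 10355 peaks in the authors' deposited table of differential peaks. Input levels were held for 5 of the 7. Arg2 and Odc1 have no listed differential peak, and their input levels were not analysed here.

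The macrophages were grown from C57BL/6 bone marrow in macrophage colony-stimulating factor for 7 days, then kept for 24 hours beside MC38, a line of mouse colon carcinoma cells. Cells labelled cKO were LysM-cre, Mettl3fl/fl, in which the lysozyme M promoter drives Cre recombinase in myeloid cells. Cells labelled WT were Mettl3fl/fl without Cre, so both genotypes carry the floxed alleles and both were exposed to the tumour cells. Each genotype has 1 library of RNA fragments bound by an m6A antibody (IP) and 1 made before binding (input). Mettl3 methylates adenosine in messenger RNA to give N6-methyladenosine (m6A). The number of mice behind each library is not given in the labels.

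With 1 library per group there is no spread between cultures, so every difference below is between single libraries, and p-values appear only as the authors deposited them. Library totals were not analysed here and the depth is unknown. Mettl3 itself had 4 peaks in the cKO list and 2 in the WT list, no differential peak and no input value here, so the deletion was not checked by these values. Of 15 macrophage marker genes 12 had an input value at a mean FPKM (fragments set against transcript length and sequencing depth) of at least 1. They summed to 4535 FPKM in cKO input and 5943 FPKM in WT input. Of the 12, 4 were lower by at least 1.5-fold in the cKO, where 1.66% of all genes at that mean FPKM were. Lyz2, the lysozyme M gene, is among those 4 and made up 1980 FPKM of the cKO sum and 3393 FPKM of the WT sum. The gap between the sums is thus about that of Lyz2 alone. Lyz2 is also the gene whose promoter drives Cre, which only the cKO carries, and the part of Cre in its level was not tested. By any amount, 8 of the 12 were lower and 4 higher in the cKO. Mesenchymal markers, 8 of 12 at a mean FPKM of at least 1, summed to 525 FPKM in cKO input and 336 FPKM in WT input. Of these, 4 were higher by at least 1.5-fold in the cKO, where 1.46% of all genes at that mean FPKM were. Of 13 epithelial markers only Krt19 reached that level, at 10.8 FPKM in cKO input and 7.05 FPKM in WT input, and 7 of the 13 had a peak in the cKO list and 5 in the WT list. Of 10 neutrophil markers 2 had a mean FPKM of at least 1. Of those 2, Mmp8 was higher by at least 1.5-fold in the cKO, at 34.8 FPKM in cKO input and 22.3 FPKM in WT input. The part of these marker differences in the results below was not tested. In bulk RNA fewer cells of a type cannot be told apart from less RNA per cell.

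Arginine enters macrophages through cationic amino acid transporters. Slc7a1 encodes the widely expressed carrier CAT1, and Slc7a2 encodes CAT2, which is induced in activated macrophages. Inside the cell, nitric oxide synthase turns arginine into nitric oxide and citrulline, while arginase turns it into ornithine and urea, so the enzymes draw on the same substrate. Nos2 is a classic marker of macrophages activated by interferon-gamma and microbial products, and Arg1 of macrophages activated by interleukin-4 and of many tumour-associated macrophages. Arg2 is the mitochondrial arginase. Ass1 acts in the path that rebuilds arginine from citrulline, and Odc1 converts ornithine into putrescine, the first polyamine.

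The sequences below are windows of 21 bases around m6A motifs in the peaks that the results turn on, read 5′ to 3′ from GENCODE M21 transcripts, with the motif in capitals. The motif searched is known as DRACH. It reads A, G or T, then A or G, then AC, then A, C or T, on the transcript strand only, with overlapping matches counted. Motifs that begin with the letters GGAC are shown for some of the peaks that hold any. The Nos2, Ass1 and Odc1 peaks hold none, and for Nos2 the TGACT and TGACC matches are shown instead. A match is a description of these letters, not a measured m6A site.
Arg1, in coding sequence (chr10:24915756-24915776, minus strand): tcctttcaGGACTagatatca
Arg1, in coding sequence near the stop codon (chr10:24915626-24915646, minus strand): taagccagGGACTgactacct
Arg2, after the stop codon (chr12:79156083-79156103, plus strand): attcgaagGGACAgatatgaa
Nos2, near the end of the transcript (chr11:78960025-78960045, plus strand): caacctccTGACTgaagcact
Nos2, near the end of the transcript (chr11:78960043-78960063, plus strand): actttgggTGACCaccaggag
Slc7a1, after the stop codon (chr5:148332372-148332392, minus strand): gaagcctgGGACCctcacaat
Slc7a1, far along the 3′ UTR (chr5:148328179-148328199, minus strand): gccttcctGGACCatcctgtt
Slc7a2, in the 3′ UTR 1391 bases after the stop codon (chr8:40917915-40917935, plus strand): cttttaaaGGACCacacaaag
Slc7a2, near the end of the transcript (chr8:40921948-40921968, plus strand): gcaaagttGGACTctttttct
The 5′ peak of Slc7a2 holds 3 such motifs within a window of 30 bases.
Slc7a2, 5′ UTR (chr8:40862837-40862866, plus strand): aacttGGACAtagGGACTgGGACTccccga

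Among input levels, Arg1 was higher in the cKO library and Nos2, Slc7a2, Slc7a1 and Ass1 were lower. Of the 5 genes with a value, 3 were at least 1.5-fold lower in the cKO on the log2(FPKM + 1) scale, as were 1.66% of the 6079 genes whose mean FPKM was 1 or more. None of the 5 was that much higher, as 1.46% of genes were. This scale understates changes of low genes. The q of all 5 genes in the authors' deposited table was 1, so none of them passed the authors' own test. Few genes did: of all 7307 genes with an input value, 3 had a q below 0.05 there.

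Nos2 (chromosome 11, 78920787 to 78960254, plus strand, mm10) stood at 215 FPKM in cKO input and 351 FPKM in WT input. The log2 difference was -0.70, and 1.05% of genes had a difference as low or lower (p 0.293 in the authors' deposited table). Slc7a2 (chromosome 8, 40862396 to 40922308, plus strand), the inducible transporter gene, stood at 192 FPKM in cKO input and 310 FPKM in WT input. Its difference of -0.69 was close to that of Nos2 (p 0.304 in the authors' deposited table). Slc7a1 (chromosome 5, 148327410 to 148399904, minus strand) was the lowest of the 5 in level, at 2.94 FPKM in cKO input and 4.93 FPKM in WT input. Its difference of -0.59 lay just past the fold threshold of 0.58 and was at -0.32 with a pseudocount of 5 FPKM and -0.57 once the median of all genes was subtracted.

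Arg1 (chromosome 10, 24915221 to 24927484, minus strand) was the most abundant of the 5 in both libraries, at 907 FPKM in cKO input and 699 FPKM in WT input. Its log2 difference was 0.38, short of 1.5-fold, and 95.8% of genes had a difference as low or lower. By level it ranked 20 of 6079 genes in cKO input and 25 in WT input. These ranks count only genes with a listed differential peak. The ratio of Arg1 to Nos2 in FPKM was 4.21 in cKO input and 1.99 in WT input. Ass1 (chromosome 2, 31470207 to 31520672, plus strand) stood at 17.1 FPKM in cKO input and 21.4 FPKM in WT input, a difference of -0.31. The order of FPKM levels was Arg1, Nos2, Slc7a2, Ass1 and Slc7a1 in both libraries. Whether neighbours in that order differ beyond the spread between cultures cannot be said from 1 library each.

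**Figure D1:**
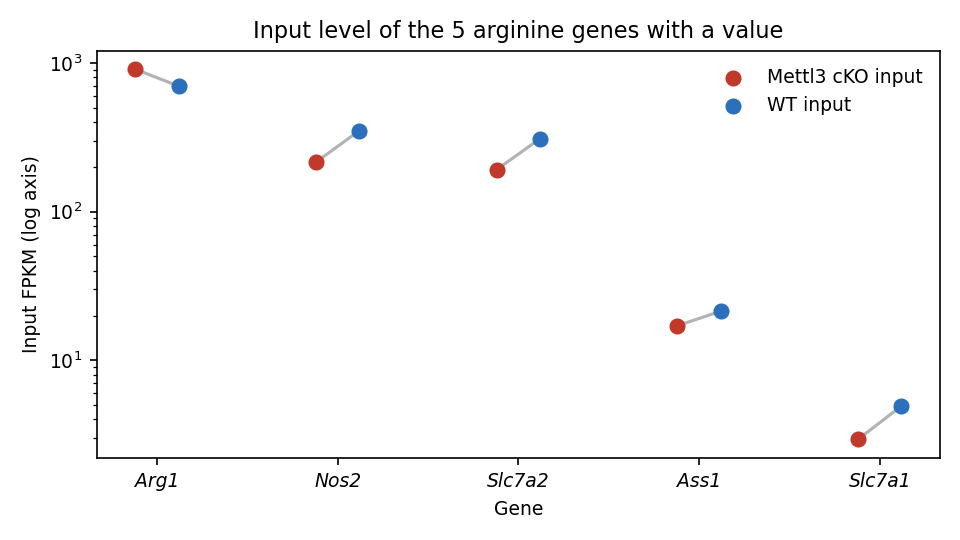
Input level in FPKM on a log axis for the 5 genes with a value, with 1 point for the Mettl3 cKO input library (left) and 1 for the WT input library (right) of each gene. Arg1 is the only gene whose cKO point lies above its WT point, at 907 against 699 FPKM.

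The genes whose 2 input levels lay nearest to those of Arg1, by Euclidean distance in log2(FPKM + 1) over the 2 libraries, were Tmsb4x (distance 0.10), Ubb (0.18) and Wfdc17 (0.19). Tmsb4x stood at 909 FPKM in cKO input and 751 FPKM in WT input. Nearest to Nos2 were Prdx5 (0.16), Slc7a2 (0.24) and Ifitm3 (0.25). With 2 libraries this likeness covers a level and 1 difference only.

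m6A enrichment at these genes was found in both genotypes. Of the 19 cKO peaks 17 overlapped a WT peak, where 71.3% of all cKO peaks did, and of the 18 WT peaks 16 overlapped a cKO peak, where 73.2% of all WT peaks did. The authors place 14 of the peaks in 3′ UTRs in each list, including those that also cover the stop codon. The median log2 IP over input of all their peaks was 0.95 in the cKO list and 0.83 in the WT list, against 1.30 and 1.22 over all genes in the cKO and the WT list. Taking 3′ UTR peaks alone, the medians were 1.20 in the cKO and 1.08 in the WT, against 1.42 and 1.30 over all genes in the cKO and the WT. Of 15 overlapping pairs that matched 1 to 1, 12 had the higher value in the cKO list, where 54.8% of 19387 such pairs of all genes did. The median difference was 0.21 over these pairs and 0.04 over all genes. Input level matters for this comparison. Over whole lists, 3′ UTR peaks of genes at an input of 100 FPKM or more had medians of 1.38 in the cKO and 1.16 in the WT. At 10 to 100 FPKM the medians were 1.36 in the cKO and 1.17 in the WT, and at 1 to 10 FPKM 1.38 and 1.23. A higher cKO value was thus also seen over genes of like level. Most of the 15 pairs were in Slc7a1 and Slc7a2. The overlapping pairs left out by the 1 to 1 rule, both in Slc7a1 with the same WT peak, were lower in the cKO, at -0.03 and -0.27. How IP was put on the scale of input is unknown here, so these are differences in the authors' ratio and not in m6A per transcript.

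**Figure D2:**
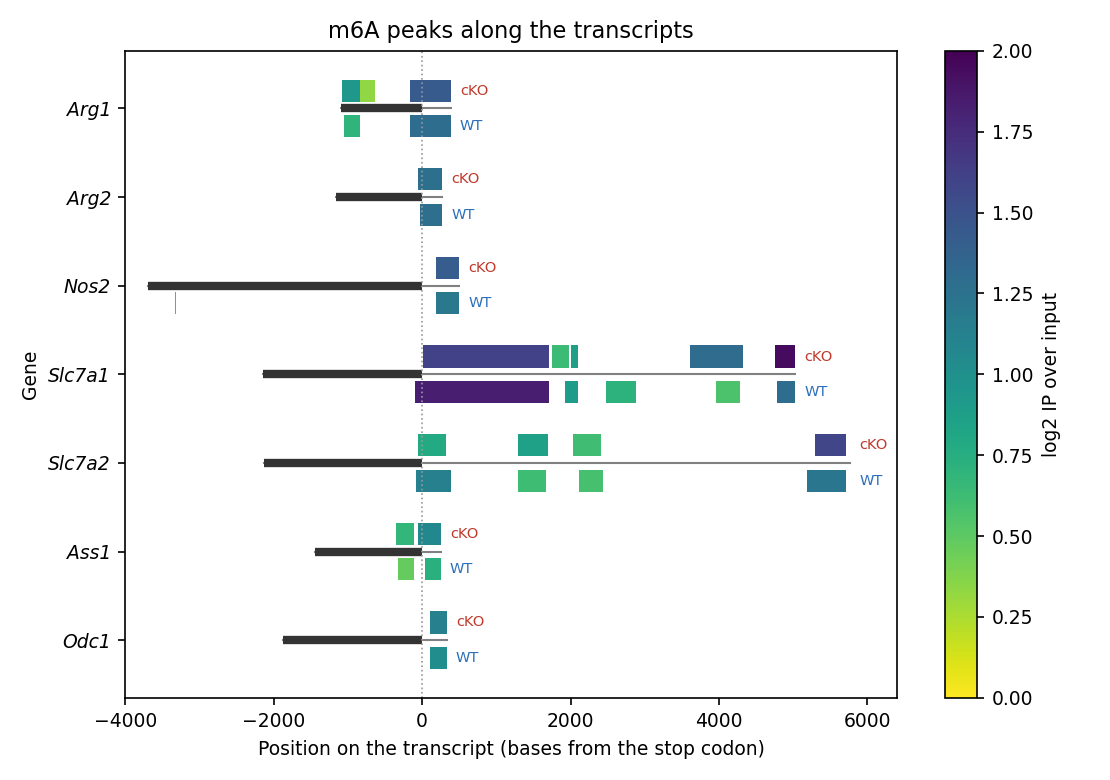
Every peak with exonic bases on a transcript that has an annotated stop codon, for the 7 genes, by position in bases from the stop codon, with cKO peaks above and WT peaks below each line. The thick line runs from the transcript start to the stop codon, the thin line is the 3′ UTR, and colour gives log2 IP over input from 0 to 2. The 2 transporter transcripts carry peaks along long 3′ UTRs, while Arg2, Nos2 and Odc1 each have a single 3′ UTR peak in each genotype.

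In the authors' deposited table, 5 of the 7 genes had a differential peak, as did 49.9% of all genes with a peak. Of the 9 peaks, 7 were higher in the cKO, where 48.9% of all listed peaks were, and 2 were lower, where 51.1% were. Of the 7 that lie in 3′ UTRs 6 were higher, where 51.5% of all listed 3′ UTR peaks were. By the adjusted p of the authors' deposited table, taken below 0.05, 6 of the 9 were higher and 1 was lower, against 24.4% higher and 28.9% lower over all listed peaks. Of all peaks below that adjusted p, 45.7% were higher. None of the 9 differed by as much as 1 on the log2 scale. The largest difference, 0.97 in Slc7a1, was greater in size than that of 63.5% of all listed peaks. The number of peaks the authors tested is not known here, so these shares are of listed peaks.

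Slc7a2 was the gene with the most differential peaks of the 7, and they differed in direction along the transcript. The peak over the stop codon (chr8:40916474-40916873, from -60 to 339 relative to the last base of the stop codon) stood at 0.70 in the cKO and 1.15 in the WT, on the log2 scale of IP over input in the authors' deposited table. The authors' deposited table gives the difference as -0.44, with an adjusted p of 1.80e-36. The next, from 1290 to 1664 bases after the stop codon, was at 0.79 in the cKO and 0.56 in the WT (0.23 and an adjusted p of 2.36e-07, both from the authors' deposited table). The last, from 5240 to 5714 bases after the stop codon, was at 1.48 in the cKO and 1.25 in the WT (0.23, with adjusted p 0.00116 by the authors' deposited table). Enrichment was thus lower in the cKO at the stop codon and higher at the 2 positions farther along. A peak between them, from 2040 to 2414 bases after the stop codon in the cKO, had 0.62 in the cKO list and 0.59 in the WT list and was not listed as differential.

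The 5′ UTR peak of Slc7a2, which holds the 3 clustered motifs, depends on the window. Over 300 bases (chr8:40862741-40863040) the authors' deposited table gives a log2 of -0.01 in the cKO and 0.73 in the WT, a difference of -0.74 with an adjusted p of 0.0558. The cKO peak list has its own, narrower peak of 175 bases inside that window, at a log2 of 0.95, while the WT list has 0.76 over the 300 bases. The direction of this difference therefore reverses between the deposited tables.

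Slc7a1, with the highest peaks among these genes, had 5 peaks in each list, all placed by the authors in its 3′ UTR. The peak nearest the stop codon, which covers 1700 bases in the cKO and 1800 in the WT, had a log2 of 1.61 in the cKO list and 1.83 in the WT list and was not listed as differential. In the cKO it holds 8 motifs that begin with GGAC, and the wider WT peak holds 9. The peak at the transcript end had 1.94 in the cKO list and 1.29 in the WT list and was not listed either. The single listed peak, from 3906 to 4280 bases after the stop codon, had 1.37 in the cKO and 0.40 in the WT, or 0.97 apart at an adjusted p of 0.00589 by the authors' deposited table. That is the largest of the 9 differences, in the gene of the 5 with the lowest input level. A WT peak from 2481 to 2880 bases after the stop codon, at 0.71, had no cKO partner.

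Arg1 had 4 peaks in the cKO list and 2 in the WT list. Its 3′ UTR peak (chr10:24915221-24915795 in both lists) runs from -169 to 389 relative to the stop codon, so it covers the end of the coding sequence and the whole 3′ UTR. It holds 18 DRACH motifs in 559 bases, 32.2 per kb, where all cKO peaks together hold 21.1 per kb. The log2 IP over input was 1.43 in the cKO list and 1.29 in the WT list, near the middle of all 3′ UTR peaks of each list (percentile 50.4 in the cKO and 49.8 in the WT). In the authors' deposited table a slightly narrower window was at 1.33 in the cKO and 1.22 in the WT, which is 0.11 apart (adjusted p 5.70e-06), and 0.254% of the peaks it has at an adjusted p below 0.05 differed by less. The adjusted p is therefore small although few called differences in that table are smaller.

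The 5′ peak of Arg1 spans introns and has 243 exonic bases in the cKO. It had a log2 of 0.89 in the cKO and 0.66 in the WT, which the authors' deposited table gives as 0.23 higher at an adjusted p of 3.84e-05. The other 2 cKO peaks had no WT partner and were weak. An exonic one had a log2 of 0.33, at or below which lay 0.00775% of cKO peaks, and one in an intron had 0.64.

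Nos2 had 1 peak in both lists, in the last 314 bases of its transcript (chr11:78959941-78960254). Its log2 IP over input was 1.41 in the cKO list and 1.20 in the WT list. In the authors' deposited table the difference was 0.18 (1.34 in the cKO and 1.16 in the WT, adjusted p 0.00107). The peak holds 4 DRACH motifs and 0 that begin with GGAC. The input of Nos2, the denominator of this value, was lower in the cKO by the -0.70 given above. The inputs of Slc7a2, Slc7a1 and Ass1 were lower too, yet the stop codon peak of Slc7a2 was lower in the cKO. For Arg1 the input was higher (0.38) and so were both its differential peaks. The part of input in these ratios was not tested. A second WT peak, at a log2 of 0.60, had no cKO partner and covers only 15 exonic bases of the transcript it is assigned to.

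Ass1, Odc1 and Arg2 each had 1 3′ UTR peak in each list. For Ass1 the log2 was 1.07 in the cKO list and 0.73 in the WT list, and the authors' deposited table gives a difference of 0.36 at an adjusted p of 0.112. Its exonic peak had 0.68 in the cKO and 0.47 in the WT and holds 0 DRACH motifs in either list. For Odc1 (chromosome 12, 17544794 to 17551505, plus strand) the log2 was 1.14 in the cKO list and 1.02 in the WT list, with no differential peak. Arg2 (chromosome 12, 79130777 to 79156301, plus strand) had the closest pair of all, at 1.27 in the cKO and 1.28 in the WT, also with no differential peak, in a peak that covers its stop codon.

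**Figure D3:**
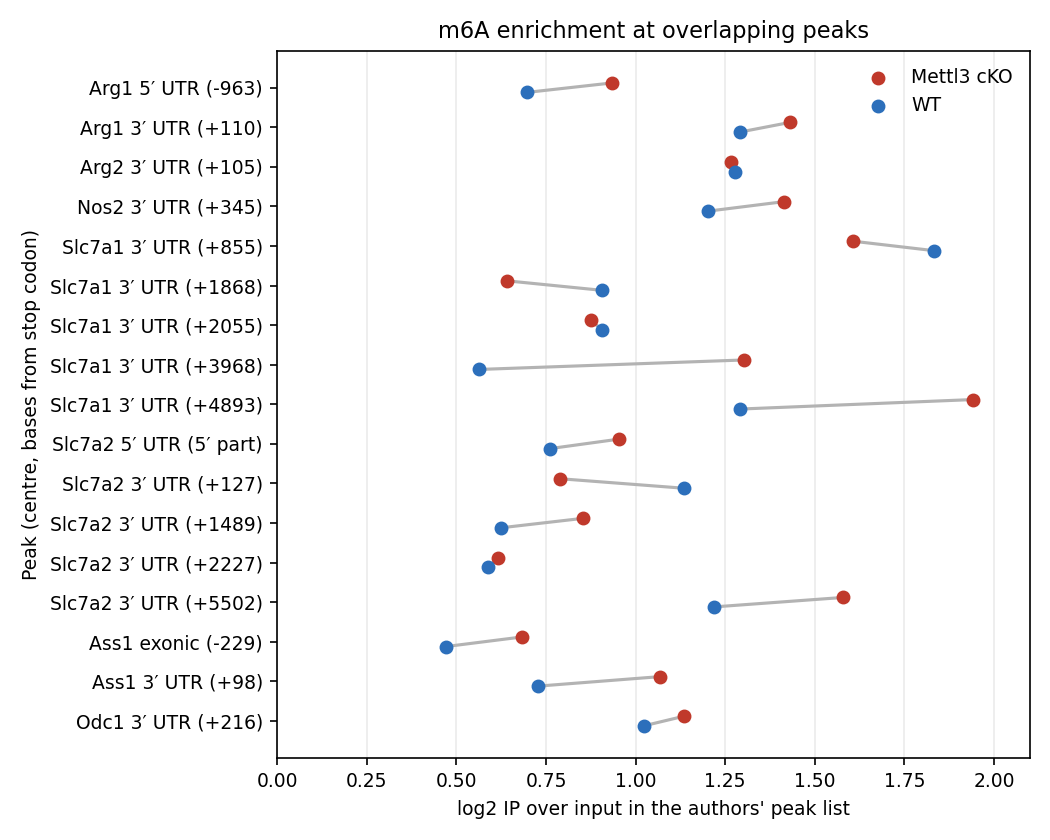
Log2 IP over input in the authors' peak lists at the 17 overlapping pairs of cKO and WT peaks, with the cKO point set above the WT point in each row. Rows follow each transcript from 5′ to 3′, numbers in brackets give the centre of the cKO peak in bases from the stop codon, and 1 WT peak of Slc7a1 at 0.91 stands in 2 rows. Slc7a1 and Slc7a2 have the lower cKO value near the stop codon, at 1.61 and 0.79, and the higher cKO value in the last row of each, at 1.94 and 1.58.

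Set side by side, the first and last paired 3′ UTR peaks of the transporters differed in opposite directions. The pair nearest the stop codon was lower in the cKO and the last was higher, by -0.23 and 0.65 in Slc7a1 and by -0.35 and 0.36 in Slc7a2. That order, noticed after the values were seen, was present in both of the 2 genes with at least 2 such pairs and in 39.6% of 1851 transcripts of all genes.

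Motifs were no denser in these peaks than elsewhere. At least 1 DRACH motif was present in 17 of 18 placed cKO peaks and 16 of 18 WT peaks, where 95.0% of all cKO peaks and 94.9% of all WT peaks held one. Motif density over all their exonic bases was 18.7 per kb in the cKO and 19.0 per kb in the WT, against 21.1 per kb over all genes in each list. A motif that begins with GGAC was present in 11 cKO and 10 WT peaks, where 64.6% of all cKO peaks and 65.1% of all WT peaks held one.

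Other genes of the pathway were taken from 7 lists of 80 symbols, of which 29 genes had a mean input FPKM of at least 1. In the cKO 4 of the 29 were lower by 1.5-fold or more and 0 were higher by as much, where 1.66% of all genes were lower and 1.46% higher. Their median difference was -0.11, against -0.02 over all genes. The 4 were Nos2, Slc7a1 and Slc7a2, described above, and Irf1, which encodes an interferon-induced transcription factor that activates Nos2 in mouse macrophages. Irf1 stood at 21.4 FPKM in cKO input and 47.7 FPKM in WT input, a difference of -1.12. Irf8, also in the list of regulators of Arg1 and Nos2, was at 20.4 FPKM in cKO input and 28.0 FPKM in WT input. Of the 10 genes of that list at a mean FPKM of at least 1, 7 were lower and 3 higher in the cKO. Their median difference was -0.14, and Irf1 alone passed 1.5-fold.

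Leaving out the 7 genes, 10 genes of uptake, urea cycle, nitric oxide, polyamine and proline metabolism had a mean FPKM of at least 1, and none of the 10 passed 1.5-fold. Their median difference was -0.08. The heavy chain gene Slc3a2, a partner of several amino acid transporters, was at 56.3 FPKM in cKO input and 73.0 FPKM in WT input, and the exchanger gene Slc7a6 at 4.65 FPKM in cKO input and 4.45 FPKM in WT input. Slc25a15, the mitochondrial ornithine carrier gene, was at 1.33 FPKM in cKO input and 1.40 FPKM in WT input. Differences of polyamine genes ranged from -0.15 for the transporter gene Atp13a3 to 0.09 for the antizyme gene Oaz2. The differences were -0.12 for Eif5a, whose protein carries the polyamine-derived residue hypusine, and -0.11 for Azin1. Aldh18a1, which makes the proline and ornithine precursor from glutamate, was at -0.25. Among genes of arginine sensing and arginyl transfer, the arginyl-tRNA synthetase gene Rars was at -0.53, the arginine sensor gene Castor1 at 0.35 and Castor2 at -0.05. No member of the nitric oxide list other than Nos2 had an input value here.

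**Figure D4:**
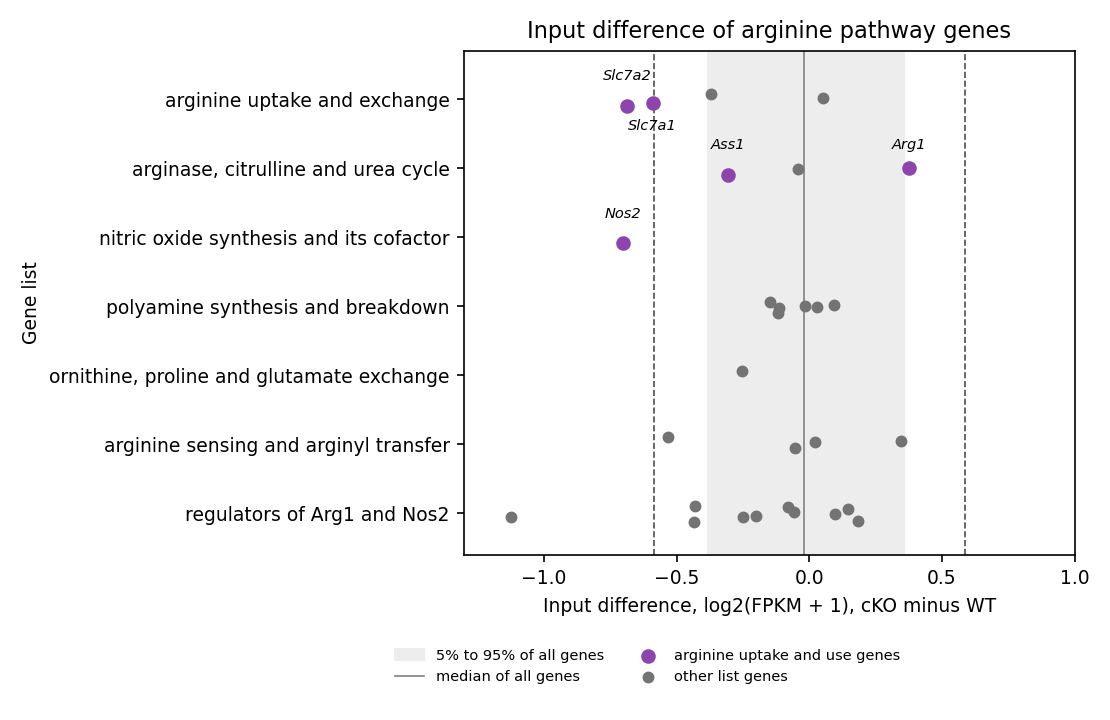
Input difference in log2(FPKM + 1), cKO minus WT, for the 29 genes of the 7 arginine pathway lists with a mean FPKM of at least 1, by list, with small vertical scatter. The grey band runs from -0.38 to 0.36 and leaves out the extremes of 6079 genes at both ends. Dashed lines mark 1.5-fold, and Nos2, Slc7a2, Slc7a1 and Irf1 (the leftmost point of the lowest row) lie past the lower line. Arg1 lies just past the upper edge of the band.

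Over the 7 lists, 24 peaks of the authors' deposited table were higher in the cKO and 16 lower, where 48.9% of all listed peaks were higher and 51.1% lower. Of these 40, 19 higher and 12 lower ones had an adjusted p below 0.05, as did 24.4% (higher) and 28.9% (lower) of all listed peaks. In the polyamine list 5 peaks were higher and 1 lower at that adjusted p, where 45.7% of all peaks below it were higher. Higher 3′ UTR peaks in the authors' deposited table were those of Oaz1 (0.27) and Oaz2 (0.63), whose antizyme proteins bind ornithine decarboxylase and send it for breakdown, and Azin1 (0.37), whose protein binds antizymes. The authors' deposited table gives adjusted p of 0.000185 for Oaz1, 0.00551 for Oaz2 and 0.00978 for Azin1. From the authors' deposited table, Eif5a (0.40, adjusted p 4.65e-12) and Atp13a3 (0.77, adjusted p 0.0216) also had a higher 3′ UTR peak, and Aldh18a1 a higher intronic one (1.53, adjusted p 0.0253). Mtap, a methionine salvage gene, had a lower 3′ UTR peak in the authors' deposited table (-0.53, adjusted p 0.0252). Among carriers, the authors' deposited table has Slc25a15 lower (-0.85, adjusted p 0.00939), Slc7a6 lower (-0.55, adjusted p 0.00495) and Slc3a2 higher (0.32, adjusted p 0.00109). Odc1 itself had no differential peak.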

How the data were processed

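The submitters' processing notes name mm10 as build and, with no role or order, edgeR, StringTie, ChIPseeker, HOMER, HISAT2 and fastp. Peak caller, tool versions and IP-to-input scaling: not given in the sources used here. Per the file headers, the deposited peak lists give a log2 IP over input with a p-value and adjusted p-value per peak, while the differential peaks the authors deposited carry log2 values in each genotype and their difference, cKO minus WT, with p-values. All listed p lay below 0.05. A gene table adds the FPKM that the authors deposited for both input libraries, only for genes with a listed differential peak, as a gene with no such peak has no row. The table's cKO column followed the cKO list at 1444 identical positions (Pearson's r across peaks 1.00) and its WT column the WT list at 1619 (1.00).

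Overlaps used bedtools 2.31.1, same strand, at least 1 base. Exonic bases and motifs come from GENCODE M21 transcripts of the same build. Input differences are log2(FPKM + 1). Functions were tested on simulated data. The genes and lists were chosen with earlier results of these data known. Named list genes are, per list, up to 3 with the largest input difference, plus those of the first 5 lists with a differential peak at an adjusted p below 0.05. Python 3.11.15 was used. The values of 1 list gene and 1 motif window are not reported here.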

Additional observations from a re-analysis of the deposited data

How the results depend on the processing

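No paired analysis was possible because each group has 1 library. Of 60 alternative values, 44 kept their direction and their side of the threshold or stayed within 1.5 times. The input differences of Nos2, Slc7a2, Arg1 and Ass1 kept direction and side under pseudocounts of 0.1 and 5 FPKM and after subtracting the median of all genes, while Slc7a1 lost its 1.5-fold call under 2 of these, as given above. With an adjusted p below 0.05, lower differential peaks of the 7 genes numbered 1. With a difference of at least 1 as well, the higher and lower ones numbered 0 and 0, while those of the pathway lists numbered 2 and 1. Of all peaks below that adjusted p, 68.9% differed by less than the 0.97 of Slc7a1, the largest difference of the 7 genes. Peaks at a log2 of at least 1 numbered 9 in the cKO and 8 in the WT. With the GGAC core alone, 11 cKO and 10 WT peaks held a motif. Over all genes past 1.5-fold, 51 were higher and 60 lower at a mean FPKM of at least 5, and 141 higher and 156 lower with a pseudocount of 0.1 FPKM. The pathway median was -0.18 at a mean FPKM of at least 5. The stricter sets hold fewer genes or peaks by construction, and a smaller pseudocount gives low genes larger differences. An overlap of at least 50% of both peaks left 14 cKO and 14 WT peaks paired. An overlap by exonic blocks was not run, since the files give none. With the depth unknown, no counting error can be set beside any value.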

Other observations

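Of the 1851 transcripts with at least 2 paired 3′ UTR peaks, 14.1% had the first pair higher and the last lower in the cKO, the opposite of Slc7a1 and Slc7a2, 29.6% had both higher and 16.7% both lower. Their median difference was -0.04 at the first pair and 0.18 at the last. These values were looked at after the peaks of Slc7a1 and Slc7a2 had been seen, and the order of the 2 genes is the most frequent of the 4.

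Of the 14 3′ UTR peaks in each list, 7 ended within 60 bases of the transcript's annotated 3′ end in each genotype. Over all genes 48.7% of cKO and 49.5% of WT 3′ UTR peaks did. The median log2 of such end peaks over all genes was 1.58 in the cKO and 1.41 in the WT, against 1.17 in the cKO and 1.12 in the WT for other 3′ UTR peaks.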
